A study of Mus musculus with 2 samples.

Results

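Complement genes were examined as 9 members, taken by their symbols in the deposited gene list: C1qa, C1qb, C1qc, C1s1, C2, C3, C4b, C7 and Cfb, which are 9 of 32589 genes in the files. All 9 were found. Their counts of unique molecular identifiers (UMIs) were summed per cell class and per library. The members cover the recognition subunits of C1, a C1 protease, both parts of the classical convertase, the central protein C3, the alternative pathway protease and 1 protein of the terminal complex.

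The study collected pressure-loaded hearts to ask how loss of p53, a transcription factor encoded by Trp53, affects cardiac hypertrophy. Pressure load came from transverse aortic constriction (TAC), a surgical narrowing of the aorta. All hearts had TAC, and the left ventricle was taken 6 weeks later. One library was labelled as wild-type mice with TAC and the other as p53 knockout mice with TAC, and each mixed tissue of 3 hearts of 1 group. Strain, age and sex of the mice, the knockout allele and any unoperated control are not given in the sources used here. With 1 library per group there is no replicate error and no test between groups. All intervals are 95%, exact, and cover counting error only, not differences between hearts, dissections or library preparations.

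Complement is a cascade of plasma proteins that tags and lyses targets and recruits leukocytes. C1q binds immune complexes or dying cells and activates the proteases C1r and C1s, which cleave C4 and C2 into the classical C3 convertase. Factor B forms the alternative convertase with C3b, and C5 to C9 assemble the membrane attack complex. The liver makes most plasma complement, while tissue macrophages, fibroblasts and the mesothelium make several components locally.

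Deposited barcodes numbered 16060 in the library labelled wild-type, with 18897913 UMIs, and 10118 in the library labelled p53 knockout, with 20918824 UMIs; 105 barcode sequences occurred in both. The 14763 and 9298 cells kept had medians of 936 and 1569 UMIs. Several facts touch every comparison below. The level of Trp53 was 38.9 CPM in the library labelled wild-type against 54.7 CPM in the other, so it did not set the labelled knockout lower; CPM are counts per 1000000 nuclear-encoded UMIs. Which exons were removed is not given in the sources used here, and a 3' count from sequence that remains would check nothing. Xist, an RNA of the inactive X chromosome of females, stood at 2.38 and 929 CPM, and 4 Y-linked genes together at 539 and 7.34 CPM. Genotype label and sex of the mice therefore cannot be told apart. The labels name cardiomyocytes as the cell type, whereas cells of many classes were found, and cardiomyocyte-like cells were 32.5% and 9.30% of kept cells. RNA of cardiomyocytes found in other classes also differed: the summed level of 10 cardiomyocyte markers lay between 8289 and 9549 CPM in 4 classes that are not cardiomyocytes in the library labelled wild-type, and between 1660 and 2401 CPM in the other.

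Cell classes were rebuilt by clustering with all complement genes left out, so no class was defined by a member. Of 10 named classes with at least 50 cells in each library, 3 carry most of the results. Fibroblast-like cells numbered 3214 and 2011, with median depths of 985 and 1748 UMIs. Macrophage-like cells numbered 864 and 735, at 896 and 1219 UMIs. The libraries filled different clusters of several classes. Endocardial-like cells lay in cluster 3 (1602 and 352 cells) and cluster 7 (18 and 1310). Vascular endothelial-like cells lay in clusters 2 (2281 and 384), 6 (409 and 1084) and 11 (33 and 507), and cardiomyocyte-like cells in clusters 0 (3245 and 128), 8 (735 and 437) and 9 (824 and 300). Values within clusters are therefore given beside those of a class for several members. A value given by class alone can include a shift between clusters. Mesothelial-like cells, which resemble the epithelial sheet on the heart's outer surface, numbered 178 and 273, at 966 and 1774 UMIs. Their 8 markers (Msln, Upk3b, Wt1 and others) were all detected and summed to 5989 and 7121 CPM. In the 9 other classes this sum lay between 11.7 and 69.1 CPM in the library labelled wild-type, whereas it lay between 44.2 and 288 CPM in the other.

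The promoter windows of the members are shown because several members had their highest level in the same class. RefSeq windows on GRCm38.p6 (250 bases before to 50 after the start) matched 5 members: C1qb, C1qc, C1s1, C3 and C7. C1qa, C2, C4b and Cfb had no entry. Capitals mark a match to 1 of 5 motifs searched on both strands, and each sequence reads 5′ to 3′ along the gene, all on the minus strand.
C1qb, chr4:136886151-136886450: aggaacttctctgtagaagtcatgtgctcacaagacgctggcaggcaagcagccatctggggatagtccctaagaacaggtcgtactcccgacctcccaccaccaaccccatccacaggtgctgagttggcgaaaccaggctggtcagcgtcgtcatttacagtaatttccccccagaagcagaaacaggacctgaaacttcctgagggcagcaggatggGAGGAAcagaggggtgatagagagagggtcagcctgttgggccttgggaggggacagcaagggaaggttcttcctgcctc
C1qc, chr4:136892865-136893164: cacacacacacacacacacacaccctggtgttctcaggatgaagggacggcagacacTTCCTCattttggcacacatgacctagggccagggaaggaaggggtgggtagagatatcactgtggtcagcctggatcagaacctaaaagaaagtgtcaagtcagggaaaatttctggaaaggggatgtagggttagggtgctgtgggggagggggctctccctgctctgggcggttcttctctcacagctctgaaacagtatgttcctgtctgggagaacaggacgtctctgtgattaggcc
C1s1, chr6:124542310-124542609: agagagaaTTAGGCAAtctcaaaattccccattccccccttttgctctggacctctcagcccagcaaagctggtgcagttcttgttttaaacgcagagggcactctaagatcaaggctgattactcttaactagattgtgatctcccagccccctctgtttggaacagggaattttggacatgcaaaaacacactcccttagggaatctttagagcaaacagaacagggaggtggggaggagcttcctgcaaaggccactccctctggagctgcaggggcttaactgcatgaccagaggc
C3, chr17:57228087-57228386: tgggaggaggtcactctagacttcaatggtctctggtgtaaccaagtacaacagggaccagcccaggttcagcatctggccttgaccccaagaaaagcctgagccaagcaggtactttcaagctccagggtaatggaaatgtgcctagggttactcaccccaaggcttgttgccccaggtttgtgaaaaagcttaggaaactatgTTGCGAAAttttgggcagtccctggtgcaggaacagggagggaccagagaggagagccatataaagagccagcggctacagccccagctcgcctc
C7, chr15:5063724-5064023: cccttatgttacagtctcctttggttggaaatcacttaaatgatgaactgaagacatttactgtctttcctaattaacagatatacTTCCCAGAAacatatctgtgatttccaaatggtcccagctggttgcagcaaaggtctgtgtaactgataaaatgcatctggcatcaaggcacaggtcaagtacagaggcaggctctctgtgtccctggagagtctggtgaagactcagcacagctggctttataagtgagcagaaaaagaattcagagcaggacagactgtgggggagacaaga
The motifs were PU.1 GAGGAA, ISRE (GAAA and GAAA with 2 bases between them), GAS TTCNNNGAA, C/EBP TTGCNNAA and NF-kB (GGGA and TTCC with 2 bases between them). They occurred in 28.3%, 3.44%, 8.30%, 10.8% and 1.47% of all 32851 windows. The macrophage transcription factor PU.1 had its letters in both C1q windows, at -30 to -25 from the start in C1qb and, on the opposite strand, at -193 to -188 in C1qc. C/EBP letters lay at -45 to -38 in C3 and, on the opposite strand, at -242 to -235 in the first of 2 C1s1 windows. The second C1s1 window held none of the 5 motifs. A GAS match, which reads alike on both strands, lay at -164 to -156 in C7. ISRE and NF-kB letters were in none of these windows. A match describes letters and is no evidence of binding.

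**Figure D1:**
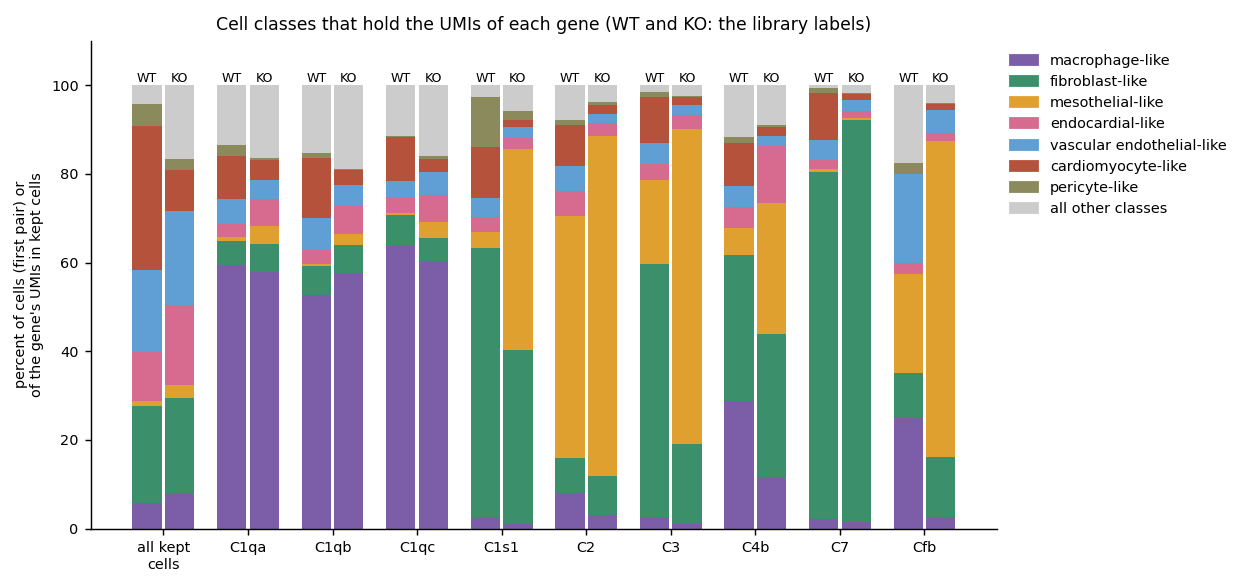
Percent of kept cells (first pair of bars) and percent of each gene's UMIs (other pairs) by cell class, in the library labelled wild-type (WT) and the library labelled p53 knockout (KO). Macrophage-like cells were 5.85% and 7.90% of cells and held 58.7% and 58.5% of C1q UMIs, while mesothelial-like cells were 1.21% and 2.94% of cells and held 18.9% and 71.0% of C3 UMIs.

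The C1q chains were transcripts of macrophages in both libraries. C1qa, C1qb and C1qc encode the A, B and C chains of the recognition molecule and lie side by side within 18675 bases of chromosome 4 (mm10; C1qa ENSMUSG00000036887, 136895917 to 136898803; C1qb ENSMUSG00000036905, 136880129 to 136886187; C1qc ENSMUSG00000036896, 136889804 to 136893065). C1qa stood at 748 CPM (interval 693 to 807) in macrophage-like cells of the library labelled wild-type, against 758 CPM (707 to 811) in the other, with overlapping intervals. C1qc stood at 707 (653 to 764) and 714 CPM (665 to 765), again overlapping. In these cells C1qb alone differed beyond counting error, at 563 (515 to 615) and 786 CPM (735 to 840), a log2 ratio of 0.48 (0.32 to 0.64). Here and below a log2 ratio sets the library labelled p53 knockout over the one labelled wild-type.

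C1qb was the smallest part of the C1q UMIs in the library labelled wild-type and not in the other. Its share of the 3 chains in macrophage-like cells was 27.9% (25.9 to 30.04) in the library labelled wild-type against 34.8% (32.9 to 36.7) in the other. C1qa made up 37.1% and 33.6%, and C1qc 35.0% and 31.6%, so that C1qb and C1qa had overlapping intervals in the library labelled p53 knockout. The shift was not present in every macrophage cluster. In cluster 102, which had the highest levels, the library labelled p53 knockout was the higher for all 3 chains, by similar log2 ratios of 0.46 (C1qa), 0.47 (C1qb) and 0.58 (C1qc). In cluster 100 C1qb had 438 and 478 CPM, whereas C1qa had 634 and 319 CPM. In cluster 106 C1qb had 501 and 358 CPM, and C1qa 313 and 414 CPM.

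The 3 chains summed gave 1816 and 2490 UMIs in macrophage-like cells, or 2018 and 2258 CPM, a log2 ratio of 0.16 (0.07 to 0.25). This sum changed sign with the choice of macrophage cells. It was -0.14 at a Leiden resolution of 0.5, -0.056 with at least 500 genes per cell, while it was -0.15 with 2 unnamed myeloid clusters (101 and 105) added. Over the clusters with at least 30 cells in each library (100, 102 and 106) it was 0.71. This lies above the ratio of each cluster alone, at -0.52, 0.51 and -0.38. The libraries filled these clusters unevenly, with 448 and 60 cells in cluster 100 and 63 and 196 in cluster 102. The value of 0.71 thus includes a shift between clusters. The single chains depended on the choice of macrophage cells too: the log2 ratio of C1qb stayed above 0 in 10 alternatives but was 0.15 at resolution 0.5, where C1qa was at -0.31 and C1qc at -0.24. The direction of summed C1q in macrophages is therefore not settled by these libraries.

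Within macrophages the level of C1q differed more between clusters than between libraries. Cluster 102, led by Cd163, F13a1 and Mrc1 and by the C1q chains themselves, had 2519 CPM from 63 cells and 3601 CPM from 196 cells, a log2 ratio of 0.51 (0.29 to 0.75). Cluster 100, led by F13a1, Mrc1, Cd163 and Timd4, had 1630 CPM from 448 cells and 1132 CPM from 60 cells, a log2 ratio of -0.52 (-0.90 to -0.17). In the same cluster C7, highest in fibroblast-like cells, had 43.2 and 207 CPM from 15 and 13 UMIs (2.27; 1.07 to 3.43). C3 had 144 and 430 CPM there (1.59; 0.85 to 2.28). The 60 cells thus held more RNA that peaked in other classes, and its part in their lower C1q was not tested. Cluster 106, which carries Cd5l and Lyz2 but also the neutrophil genes S100a8 and Csf3r, had 1480 and 1139 CPM.

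Other clusters came from 1 library nearly alone, so a class and a library cannot be told apart there. Cluster 103, also led by F13a1, held 239 cells of the library labelled wild-type with 2438 CPM. Cluster 104, led by Arhgap22 and Cd72, held 242 cells of the library labelled p53 knockout and had 2234 CPM. Cluster 107, led by Gpnmb, Mmp12 and Lgals3, held 145 cells of that library and had 1307 CPM. Without cluster 107 the summed log2 ratio was 0.34. Of the unnamed clusters, 101, led by MHC class II genes and Ccr2, had 1981 and 1477 CPM, and 105, led by Fgr and Chil3, had 331 CPM in the library labelled p53 knockout.

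Outside macrophages the C1q chains were lower. In the 9 other classes compared their sum lay between 54.0 and 209.95 CPM in the library labelled wild-type, whereas it lay between 49.2 and 149 CPM in the other, the highest values resting on 11 and 44 UMIs in smooth muscle-like and B-like cells. Classes with too few cells to compare reached more in the library labelled p53 knockout: 136 T or NK-like cells had 362 CPM (281 to 459) from 68 UMIs, and 59 neutrophil-like cells had 525 CPM (355 to 750.1) from 30 UMIs. After each cell was thinned to 500 UMIs, 48.6% (45.2 to 52.0) and 52.9% (49.2 to 56.6) of macrophage-like cells had a C1q UMI, against 64.6% and 69.1% without thinning. Cardiomyocyte-like cells, which should lack C1q, had one in 2.89% and 3.58% of thinned cells and in 5.68% and 11.9% of whole cells, at median depths of 986.5 and 1737 UMIs. Per 100 UMIs of 10 macrophage markers there were 17.7 C1q UMIs (16.8 to 18.6) in macrophage-like cells of the library labelled wild-type against 22.6 (21.6 to 23.6) in the other. Fibroblast-like cells had 12.8 in both, and the 9 other classes ranged from 8.81 to 44.0 and from 8.28 to 24.3. Macrophage markers summed to 355 to 675 CPM in those classes of the first library and to 362 to 791 CPM in the other, against 11403 and 9999 CPM in macrophage-like cells. How much of the low C1q elsewhere was free RNA was not tested.

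Among the pairs of chains, cells with 1 chain had another at a higher share than cells without it. Of thinned macrophage-like cells with C1qa, 25.7% (20.1 to 31.9) had C1qb in the library labelled wild-type, against 16.7% (13.9 to 19.8) of those without C1qa. In the other library these shares were 37.4% (30.3 to 45.0) and 25.0% (21.5 to 28.8). For C1qb and C1qc they were 34.8% against 18%, and 34.95% against 20.04%. For C1qa and C1qc they were 27.5% (21.7 to 33.9) against 19.0% (16.04 to 22.3) in the library labelled wild-type, with overlapping intervals, and 37.4% against 19.96% in the other. Cells and clusters that differ in level raise such shares too.

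**Figure D2:**
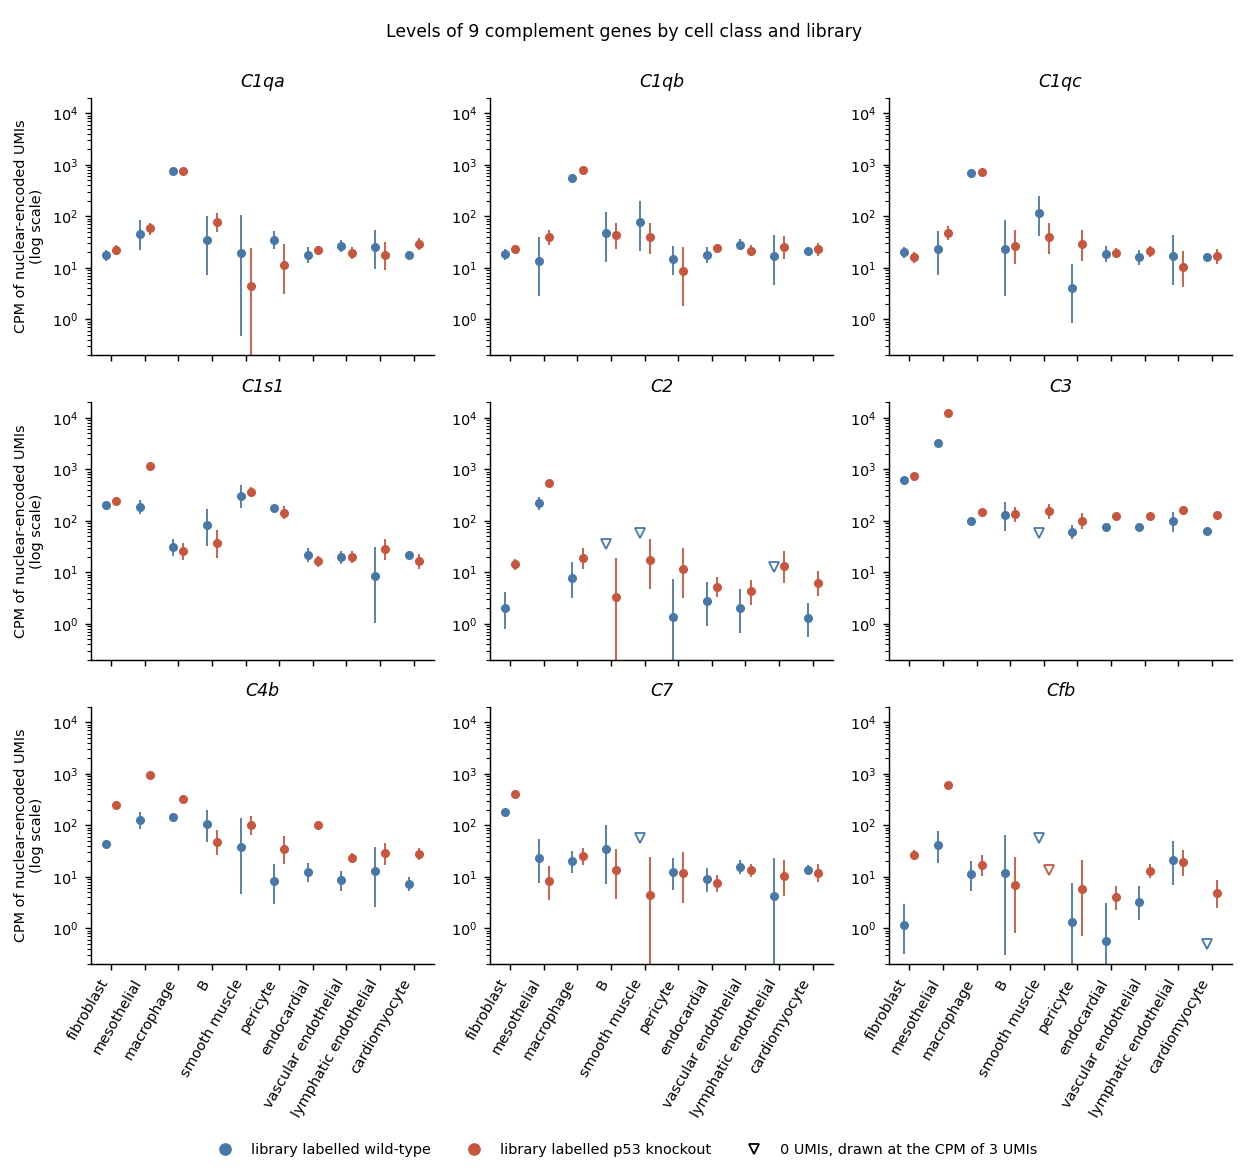
Level of each member in CPM of nuclear-encoded UMIs (log scale) in 10 cell classes of both libraries, with exact 95% intervals for counting error; an open triangle marks 0 UMIs, drawn at the CPM of 3 UMIs. The C1q chains peak in macrophage-like cells, C2 and C3 in mesothelial-like cells and C7 in fibroblast-like cells in both libraries.

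C1s1, the mouse gene of the protease C1s that cleaves C4 and C2, was a transcript of stromal and mesothelial-like cells. The gene is ENSMUSG00000038521 on chromosome 6, 124530345 to 124542359. In the library labelled wild-type 4 classes had levels within counting error of each other: smooth muscle-like cells at 305 CPM (175 to 496) from 16 UMIs, fibroblast-like at 199 (184 to 214), mesothelial-like at 187 (134 to 254) and pericyte-like cells at 174 (145 to 207). In the library labelled p53 knockout these classes stood at 371, 238, 1182 and 145 CPM. Mesothelial-like cells thus stood at the top of the order there, with a log2 ratio of 2.64 (2.21 to 3.15). Fibroblast-like cells differed by only 0.26 (0.12 to 0.40), and the intervals of pericyte-like (-0.77 to 0.21) and smooth muscle-like cells (-0.50 to 1.15) held 0.

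Mesothelial-like cells held 3.60% of all C1s1 UMIs in the library labelled wild-type against 45.3% in the other. The thinned share of mesothelial-like cells with a C1s1 UMI was 7.87% (4.37 to 12.8) and 31.1% (25.7 to 37.0), against 14.6% and 61.5% in whole cells. Endocardial-like cells, with little C1s1, had 1.11% and 1.26% thinned and 2.22% and 3.55% in whole cells, at 1012.5 and 1988 median UMIs. The antisense gene Gm16567 overlaps C1s1, and the near copy C1s2 had 1 and 5 UMIs, so a few reads could be misplaced between them.

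C4b and C2 encode the proteins of the classical C3 convertase, and the library labelled p53 knockout had more of both in fibroblast-like and mesothelial-like cells, and C4b passed 2-fold in more classes than any other member. C4b is ENSMUSG00000073418 on chromosome 17, 34728380 to 34743882. Its level in fibroblast-like cells was 43.6 CPM (36.9 to 51.1) from 152 UMIs in the library labelled wild-type against 247 CPM (232 to 262) from 1032 UMIs in the other, and the log2 ratio was 2.50 (2.26 to 2.76). Mesothelial-like cells had 128 (84.8 to 184) and 968 CPM (907 to 1032), a log2 ratio of 2.90 (2.38 to 3.52). Endocardial-like cells had 12.3 (7.74 to 18.7) and 102 CPM (91.9 to 112), a log2 ratio of 3.01 (2.42 to 3.73). In cluster 3, their one cluster with at least 30 cells in each library, C4b had 12.5 and 45.5 CPM and a smaller log2 ratio of 1.86 (0.99 to 2.75), while cluster 7 had 111 CPM in the library labelled p53 knockout. Intervals of both libraries were apart in all 3 classes.

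In macrophage-like cells C4b stood at 147 and 331 CPM, a log2 ratio of 1.17 (0.88 to 1.47). Of the 365 UMIs in the library labelled p53 knockout 226 lay in cluster 102, which had 261 and 662 CPM (1.31; 0.65 to 2.12), while cluster 100 had 141 and 159 CPM (0.23; -0.97 to 1.17). Cardiomyocyte-like cells had 7.31 and 28.0 CPM (1.93; 1.36 to 2.52), and vascular endothelial-like cells 8.64 and 23.3 CPM (1.40; 0.72 to 2.20). By cluster the cardiomyocyte ratio of C4b was 2.56 (0.44 to 3.95) in cluster 0, from 25 and 4 UMIs. It was 2.79 (1.61 to 4.42) in cluster 8 and 1.44 (0.47 to 2.51) in cluster 9. The vascular ratio was 1.97 (0.71 to 3.13) in cluster 2, where the C1q chains (1.04) and C7 (1.32) were also higher. It was 1.15 (-0.17 to 3.25) in cluster 6. C4b was thus at least 2-fold higher in all 6 of the large classes in which it had 50 UMIs or more. Over all kept cells C4b stood at 28.0 and 172 CPM. The part of free RNA in the low levels of cardiomyocyte-like and vascular endothelial-like cells was not tested. In the library labelled wild-type the top class for C4b was not settled, since macrophage-like, mesothelial-like and B-like cells (105 CPM from 9 UMIs) had overlapping intervals. In the other library mesothelial-like cells were 2.92-fold above macrophage-like cells.

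Adipocyte-like cells, too few to enter the comparisons with 31 and 58 cells, had 508 CPM of C4b (322 to 762) from 23 UMIs and 1208 CPM (1023 to 1416) from 151 UMIs. This is the highest C4b level of any named class in either library, although its interval of the library labelled p53 knockout overlaps that of mesothelial-like cells. The interval of Schwann-like cells (18 and 5 cells) overlaps it in both libraries. They had 361 CPM (145 to 744) from 7 UMIs and 419 CPM (86.5 to 1225) from 3 UMIs. Thinned shares of cells with a C4b UMI were 1.93% (1.48 to 2.47) and 8.80% (7.60 to 10.1) for fibroblast-like cells and 0.33% and 1.16% for cardiomyocyte-like cells. Without thinning they were 3.48% and 19.2%, and 0.77% and 4.74%. The near copy C4a had 12 and 33 UMIs in all kept cells, and how the counting divided reads between the copies is not given in the sources used here.

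C2 (ENSMUSG00000024371; chromosome 17, 34862604 to 34898265) was largely a transcript of mesothelial-like cells. They had 219 CPM (161 to 290) from 48 UMIs in the library labelled wild-type against 536 CPM (491 to 584) from 522 UMIs in the other, and the log2 ratio was 1.28 (0.86 to 1.75). Of the 10 classes compared, macrophage-like cells came next and were 28.1-fold lower in both libraries. The few adipocyte-like cells had 66.2 and 32.0 CPM, from 3 and 4 UMIs. Fibroblast-like cells had 2.01 and 14.3 CPM from 7 and 60 UMIs (2.75; 1.71 to 4.21). Mesothelial-like cells held 54.5% and 76.5% of all C2 UMIs. Gm20547, a gene on the same strand that spans parts of C2 and Cfb, and Zbtb12 on the opposite strand overlap C2, so reads there are uncertain.

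C3, the protein on which all complement pathways converge, was a transcript of mesothelial-like and fibroblast-like cells, and its mesothelial level differed most. C3 is ENSMUSG00000024164 on chromosome 17, 57203970 to 57228136. Mesothelial-like cells had 3273 CPM (3038 to 3521) from 718 UMIs in the library labelled wild-type against 12321 CPM (12102 to 12544) from 12006 UMIs in the other. The intervals are far apart, and the log2 ratio was 1.91 (1.80 to 2.02). Fibroblast-like cells, second in both libraries, had 626 (600.1 to 653) and 738 CPM (712 to 764), a log2 ratio of 0.24 (0.16 to 0.32). The mesothelial level was 5.23-fold and 16.7-fold above the fibroblast level.

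A C3 UMI was found in 47.2% (39.7 to 54.8) and 84.6% (79.8 to 88.7) of thinned mesothelial-like cells and in 64.0% and 91.9% of whole ones. Cardiomyocyte-like cells had one in 3.33% and 6.36% of thinned cells and in 6.27% and 20.9% of whole cells. Both the number and the depth of the mesothelial-like cells moved with this result: they held 1.34% of nuclear-encoded UMIs in the library labelled wild-type against 5.26% in the other, at means of 1233 and 3569 such UMIs per cell. Fibroblast markers summed to 4882 and 7882 CPM in mesothelial-like cells, against 17339 and 20421 CPM in fibroblast-like cells. With cells thinned to 500 UMIs the mesothelial log2 ratio of C3 was 2.13, from 2203 and 9669 CPM, so the difference was as large at equal depth.

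In fibroblasts the class value hid larger differences within its 2 clusters. Cluster 1 held 3099 and 216 cells and cluster 4 held 115 and 1795, so the libraries filled different clusters. Cluster 4 was led by Cilp, Postn and Col8a1. Cluster 1 was led by Abca6, Clec3b and Scara5 and had the Schwann cell marker Cdh19 among its 10 leading genes, and it was named fibroblast-like with Cdh19 left out, a choice made after the data were seen. C3 stood at 634 and 1145 CPM in cluster 1, a log2 ratio of 0.85 (0.68 to 1.02), and at 450 and 707 CPM in cluster 4, a log2 ratio of 0.64 (0.31 to 1.02). Both lay above the 0.24 of the class: cluster 4, with the lower C3 level in each library, made up most fibroblast-like cells of the library labelled p53 knockout.

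C4b stood at 40.8 and 265 CPM in cluster 1 (2.70; 2.28 to 3.11) and at 103 and 245 CPM in cluster 4 (1.21; 0.55 to 2.07). C1s1 stood at 200 and 326 CPM in cluster 1 (0.71; 0.38 to 1.02) and at 173 and 231 CPM in cluster 4 (0.39; -0.14 to 1.02). Within each cluster the library labelled p53 knockout was the higher for C3, C4b and C1s1, with an interval that held 0 for C1s1 in cluster 4.

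**Figure D3:**
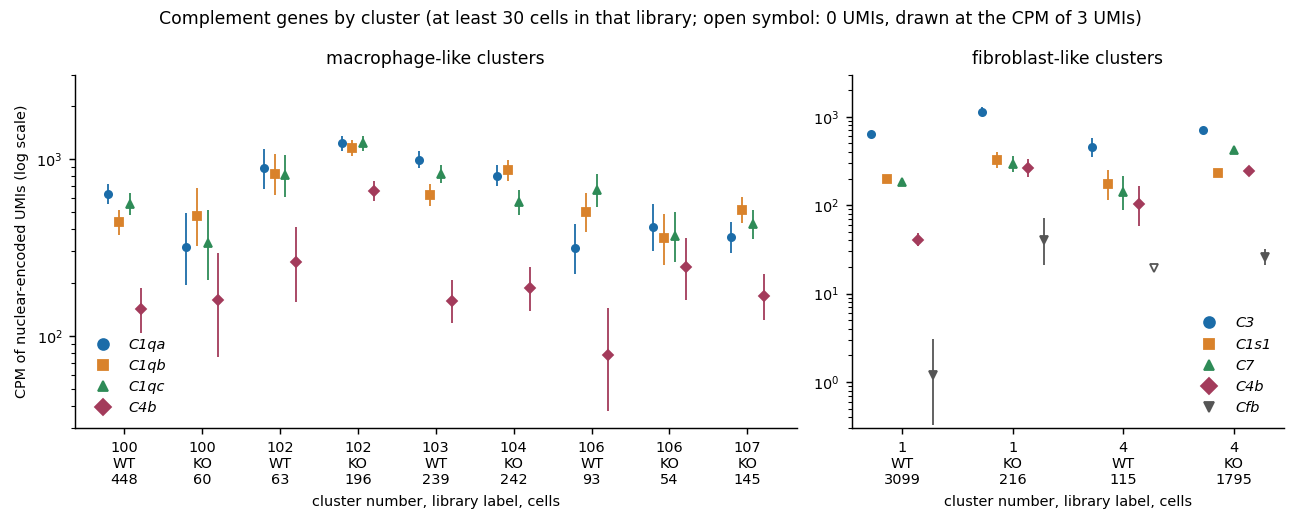
Levels in CPM of nuclear-encoded UMIs (log scale) by cluster and library label, with the number of cells under each and exact 95% counting intervals, for C1q chains and C4b in macrophage-like clusters and 5 members in fibroblast-like clusters. In both fibroblast-like clusters the library labelled p53 knockout had the higher C3 and C4b, whereas C1qa was higher in cluster 102 and lower in cluster 100.

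C3 was low in the other classes compared, and in 6 of those with at least 50 UMIs the library labelled p53 knockout was the higher beyond counting error. The log2 ratio was 0.71 in endocardial-like, 0.76 in vascular endothelial-like, 0.57 in macrophage-like, 0.74 in pericyte-like and 0.70 in lymphatic endothelial-like cells. These class values hid differences by cluster: C3 was at 1.76 (1.37 to 2.14) in vascular cluster 2 and at 1.55 (0.85 to 2.42) in cluster 6, but at 0.45 (-0.02 to 0.89) in endocardial cluster 3. Cardiomyocyte-like cells had 64.2 and 131 CPM (1.03; 0.80 to 1.25), with 1.62 (0.85 to 2.25), 1.53 and 0.87 in clusters 0, 8 and 9. In cluster 0, with 128 cells of the library labelled p53 knockout, C7 was at 2.30 too (1.04 to 3.25), from 64 and 9 UMIs. In clusters 8 and 9 C7 was at 0.86 and -0.28, with intervals that held 0. The C3 value of the class fell under 2-fold in 3 alternatives, to 0.92 with cells thinned to 500 UMIs. B-like cells had 129 and 135 CPM, with an interval from -0.92 to 1.18. Smooth muscle-like cells had 0 and 35 UMIs, the latter 155 CPM against the 57.3 CPM that 3 UMIs would be in the library labelled wild-type, at least 2.70-fold higher. These levels moved together with the total of C3 and with mesothelial markers: in cardiomyocyte-like cells the 8 markers summed to 31.5 and 69.8 CPM, in endocardial-like cells to 34.8 and 61.9 CPM. The part of free RNA in these C3 levels was not tested. Adipocyte-like cells, too few to compare, had more C3 than these classes. They had 287 CPM (153 to 491) from 13 UMIs and 384 CPM (283 to 509) from 48 UMIs.

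Cfb encodes factor B, the protease of the alternative convertase, and its neighbour on chromosome 17 is C2 (Cfb ENSMUSG00000090231; 34856374 to 34862518). It was scarce in the library labelled wild-type, with 40 UMIs in all kept cells against 814 in the other. Mesothelial-like cells had 41.0 CPM (18.8 to 77.9) from 9 UMIs and 594 CPM (547 to 645) from 579 UMIs, a log2 ratio of 3.78 (2.92 to 4.99). Fibroblast-like cells had 1.15 and 27.0 CPM from 4 and 113 UMIs (4.40; 3.16 to 6.46). Vascular endothelial-like cells had 3.29 and 12.9 CPM (1.90; 0.86 to 3.27). Their cluster 2 had 4.17 and 18.6 CPM from 8 and 6 UMIs (2.19, interval 0.35 to 3.88), and cluster 6 had 0 and 16 UMIs. The part of free RNA in these low vascular levels was not tested. The intervals were apart in all 3 classes, and mesothelial-like cells held 22.5% and 71.1% of Cfb UMIs.

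At these counts the order of classes is firm only in 1 library. In the library labelled wild-type the mesothelial level of Cfb overlapped that of lymphatic endothelial-like cells, at 21.2 CPM from 5 UMIs. In the library labelled p53 knockout the mesothelial level was 22.0-fold above that of fibroblast-like cells. In cluster 1 Cfb stood at 1.20 and 40.8 CPM. In cluster 4 it had 0 UMIs in 115 cells of the library labelled wild-type against 26.0 CPM in the other; 3 UMIs would be 19.3 CPM there, so it was at least 1.35-fold higher, and a difference of the size seen in cluster 1 could not be read at that depth. The overlap with Gm20547 makes Cfb counts uncertain as well.

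C7, a protein of the membrane attack complex, was a transcript of fibroblasts in both libraries. The gene is ENSMUSG00000079105 on chromosome 15, 4988762 to 5063740. Fibroblast-like cells had 181 CPM (167 to 195) from 630 UMIs in the library labelled wild-type against 411 CPM (392 to 431) from 1718 UMIs in the other, and the log2 ratio was 1.19 (1.05 to 1.32). They held 78.2% and 90.8% of all C7 UMIs. In cluster 1 C7 stood at 182 and 296 CPM (0.70; 0.36 to 1.02) and in cluster 4 at 141 and 420 CPM (1.54; 0.97 to 2.25). The library labelled p53 knockout was the higher in both.

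No other class exceeded 35.1 CPM of C7 in either library. Mesothelial-like cells, which had the highest C2 and C3, had 5 and 8 UMIs of C7, or 22.8 (7.40 to 53.2) and 8.21 CPM (3.54 to 16.2), so C7 did not go with the other members there. Thinned shares of fibroblast-like cells with a C7 UMI were 5.23% and 9.30%, against 0.92% and 0.66% of vascular endothelial-like cells. Whole cells had 9.12% and 17.8%, and 1.10% and 1.52%, at vascular endothelial medians of 818 and 1406 UMIs.

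**Figure D4:**
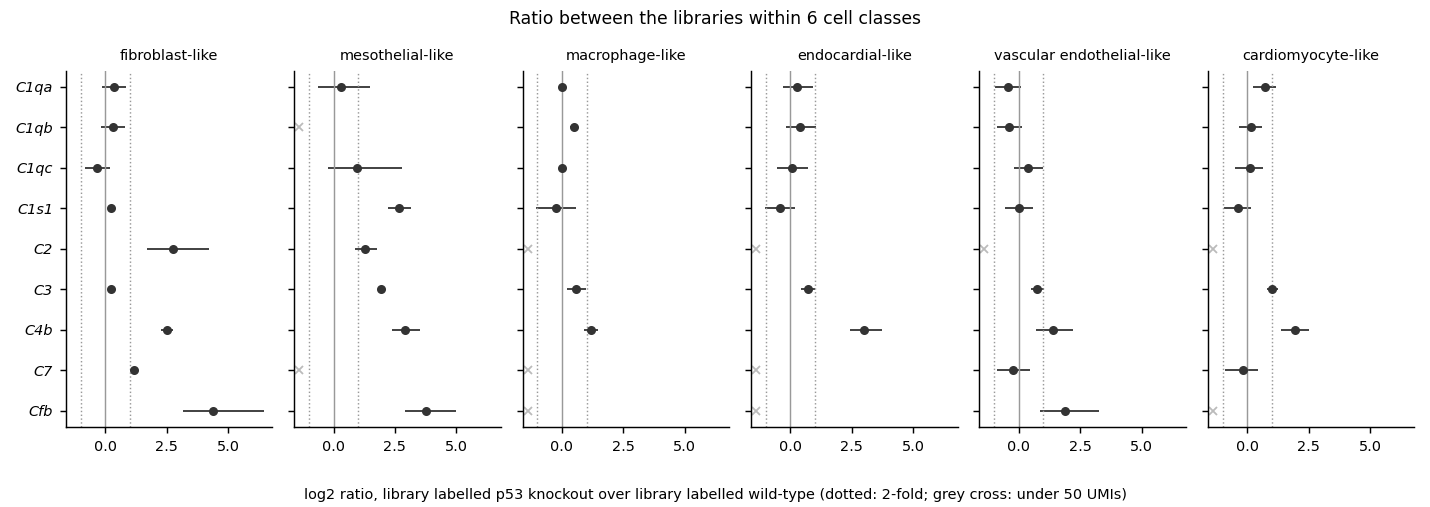
Log2 ratio between libraries, the one labelled p53 knockout over the one labelled wild-type for each member in 6 cell classes, with exact 95% counting intervals; dotted lines mark 2-fold and grey crosses members with under 50 UMIs. C4b lies beyond 2-fold higher in all 6 classes, and no member with at least 50 UMIs lies beyond 2-fold lower.

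Counted over classes, members measured with 50 UMIs or more over both libraries were often at least 2-fold higher in the library labelled p53 knockout. None was 2-fold lower at that minimum. In fibroblast-like cells 4 of 9 members were (C2, C4b, C7 and Cfb), where 5.52% of all measured genes were. In mesothelial-like cells 5 of 7 were (C1s1, C2, C3, C4b and Cfb), against 11.5% of genes. In macrophage-like and endocardial-like cells it was C4b alone among 6 members each, against 7.44% and 5.43% of genes. Cardiomyocyte-like cells had 2 of 7 (C3 and C4b) against 3.24%, and vascular endothelial-like cells 2 of 8 (C4b and Cfb) against 5.68%. In pericyte-like (4.39% of genes), smooth muscle-like (20.2%), B-like (13.2%) and lymphatic endothelial-like cells (6.90%) none of 2, 1, 1 and 1 members was, and none was 2-fold lower, where 7.73%, 7.22%, 7.52% and 4.92% of genes were. That made 15 of 48 pairs of member and class, with 0 lower, and members are not replicates of each other. The minimum is on the sum of both libraries, so some pairs passed it mainly through the library where they were high. In fibroblast-like cells Cfb had 4 and 113 UMIs, and C2 7 and 60. With a minimum of 1 UMI, 29 of 89 pairs were at least 2-fold higher and 9 lower, where 13.7% and 23.3% of all pairs of gene and class were.

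The share of genes at least 2-fold lower was 8.67% in fibroblast-like, 9.25% in mesothelial-like, 8.21% in macrophage-like, 8.09% in endocardial-like, 8.91% in vascular endothelial-like and 12.5% in cardiomyocyte-like cells. Median log2 ratios of the measured members were 0.36 in fibroblast-like cells (all genes -0.08), 1.91 in mesothelial-like (-0.04), 0.25 in macrophage-like (0.00), 0.33 in endocardial-like (-0.08), 0.20 in vascular endothelial-like (-0.05) and 0.15 in cardiomyocyte-like cells (-0.24). With cells thinned to 500 UMIs 9 of 31 pairs were at least 2-fold higher, where 5.53% of all measured pairs of gene and class were and 8.23% were 2-fold lower. The 1 then lower was C1s1 in cardiomyocyte-like cells at -1.04, from 64 and 5 UMIs.

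Over all kept cells, 5 of 9 members were at least 2-fold higher in the library labelled p53 knockout, where 10.1% of all measured genes were, and 0 were 2-fold lower, where 9.76% were. C3 had 232 and 913 CPM (1.98; 1.93 to 2.03), C4b 28.0 and 172 CPM (2.62; 2.48 to 2.76) and Cfb 2.44 and 43.9 CPM (4.16; 3.71 to 4.67). C2 had 5.36 and 36.8 CPM (2.77), C7 49.1 and 102 CPM (1.06), and C1s1 69.4 and 137 CPM (0.98). The C1q chains together had 188 and 229.7 CPM (0.29; 0.22 to 0.35). The median over members was 1.06, and over all genes 0.04.

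How much of each overall ratio went with the mesothelial-like cells could be read by leaving them out, a comparison chosen after the data were seen. C3 was then at 191 and 279 CPM, so its log2 ratio was 0.55 (0.49 to 0.62) in place of 1.98. C1s1 was at 0.22 (0.11 to 0.34), C2 at 1.87 (1.38 to 2.42) and Cfb at 2.79 (2.26 to 3.40). C4b, at 26.7 and 128 CPM, was at 2.26 (2.11 to 2.41), and C7 had 1.12 (0.999 to 1.24). Without these cells 4 of 9 members were at least 2-fold higher, against 9.80% of genes, and none was 2-fold lower, against 9.75% of genes. The ratios of C1s1, C2, C3 and Cfb thus moved far more with 1 small class than those of C4b and C7.

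The mix of classes was also set apart from the levels within them, by whole classes. The part left to levels therefore still includes any shift between clusters within a class. With every class at its level in the library labelled wild-type but with the UMI shares of the other library, C3 would be at 368 CPM, a log2 ratio of 0.67 that left 1.31 to levels. For C4b the mix gave 0.47 and the levels 2.14, for C7 0.05 and 1.01, and for C1s1 0.15 and 0.83. C2 had 1.48 and 1.30, the largest part from the mix among members, and Cfb 1.03 and 3.14. The C1q chains are left out of this split. Of the 70.5 CPM that the mix would add to them, 59.3 CPM came with unnamed cells and 9.52 CPM with macrophage-like cells, and the unnamed cells were mainly cluster 101 in the library labelled wild-type (149 of 174 cells) but mainly cluster 15, led by Gm10800, in the other (327 of 635).

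**Figure D5:**
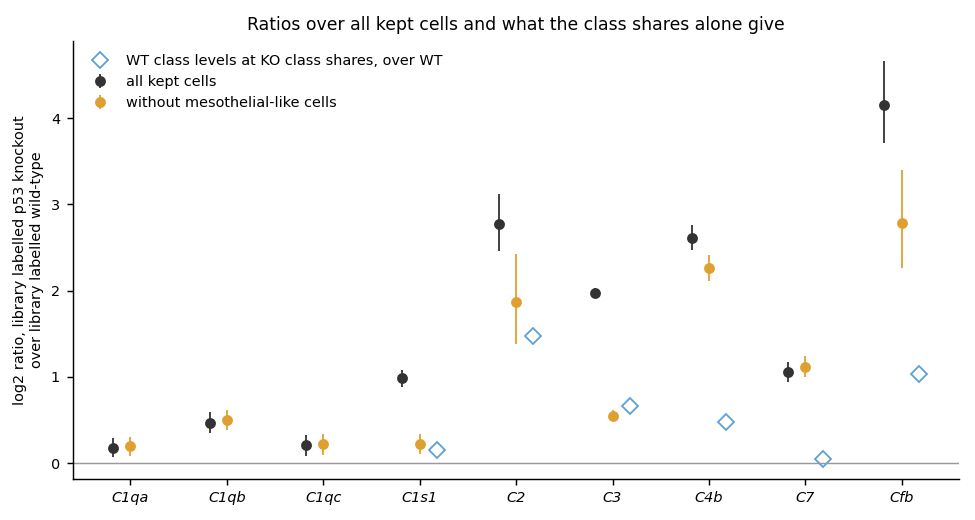
Log2 ratio between libraries, the one labelled p53 knockout over the one labelled wild-type for each member over all kept cells and without mesothelial-like cells, with exact 95% counting intervals, and, for the members other than the C1q chains, the ratio that class shares alone give (diamonds). C3 is at 1.98 with and at 0.55 without mesothelial-like cells, while C4b is at 2.62 and 2.26.

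Likeness of pattern was described as the Pearson correlation of log2(CPM + 5) over 23 points, the named classes of each library with at least 50 cells, among 11645 genes. The points share 2 libraries, so no p is given. C1qa was most like Adgre1 (0.93), the F4/80 antigen of macrophages, and F13a1 (0.91). C1qb was most like Ms4a6c (0.95) and C1qc (0.94). C2 was most like the epithelial genes Krt7 (0.93), Upk1b (0.91) and Krt8 (0.90), and Cfb was most like Fam110c (0.84) and C2 (0.82). C3 was most like Aebp1 (0.87) and Rhou (0.87), C7 like Pi16 (0.88), and C1s1 like Rab36 (0.85) and Serping1 (0.84), the gene of the C1 inhibitor. C4b had the weakest nearest gene, Mt2 at 0.75.

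Among members, the C1q chains had correlations of 0.81 to 0.94 with each other, C2 with C3 0.81, C2 with Cfb 0.82 and C3 with Cfb 0.74. C7 was near 0 with C2 (-0.06) and Cfb (-0.03). In thinned fibroblast-like cells those with a C3 UMI had C4b in 3.84% and 15.02%, against 1.47% and 7.03% of those without C3. C7 showed no such pairing: 20.2% and 23.0% of cells with C7 had C3, against 19.4% and 22.1% without C7, and the intervals overlapped.

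The other complement genes were taken from lists by role that hold 46 genes besides the members, 31 of them with at least 100 UMIs in all kept cells. Of these 12 were at least 2-fold higher and 3 at least 2-fold lower in the library labelled p53 knockout, and their median ratio was 0.72. Over all genes with at least 100 UMIs 9.28% were 2-fold higher and 8.71% lower, with a median of 0.04. In activation by the classical and lectin routes 1 of 5 was higher: C1ra, the protease partner of C1s, at 40.1 and 102 CPM (1.34). C1ra followed C1s1 in mesothelial-like cells, at 155 and 879 CPM (2.48; 2.01 to 3.04), and in fibroblast-like cells had 118 and 149 CPM (0.34). Its near copy C1rb had 3 and 4 UMIs. Colec12, a scavenger receptor collectin, had 170 and 158 CPM, Colec11 40.6 and 41.2 CPM, and Masp1, a lectin pathway protease, 11.6 and 16.8 CPM.

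In the alternative pathway Cfd, the adipocyte product factor D that cleaves factor B, had 5.73 and 33.1 CPM (2.53), and Cfp, properdin, which stabilises the convertase, had 28.0 and 24.9 CPM (-0.17). These values do not set the mix of classes apart, and adipocyte-like cells numbered 31 and 58. Cfd was also higher at low levels elsewhere, such as 0.97 and 13.3 CPM in cardiomyocyte-like and 1.12 and 12.8 CPM in endocardial-like cells. Of the classes compared only pericyte-like cells were lower, from 4 and 0 UMIs. The part of free RNA in these levels was not tested. Of the terminal complex C6 alone of 6 genes was measured, at 3.17 and 4.96 CPM (0.64). C5, listed under its mouse symbol Hc, had 15 and 13 UMIs, and C8a, C8b, C8g and C9 also stayed below 100.

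Among 14 measured regulators 4 were at least 2-fold higher and 2 lower. Clu, clusterin, which binds the terminal complex, had 136 and 402 CPM (1.56), with 178 and 998 CPM in mesothelial-like cells. Cfi, factor I, which cleaves C3b, had 0.79 and 8.15 CPM (3.31), from 13 and 151 UMIs. Of the latter 75 lay in endocardial-like cells (18.8 CPM) and 50 in mesothelial-like cells (51.3 CPM), while each of these classes had 1 UMI in the library labelled wild-type. Clusters were not set apart here, and endocardial cluster 7 held 18 and 1310 cells. Serping1 had 182 and 226 CPM (0.31), Cr1l, a membrane regulator, 192 and 140 CPM (-0.45), and Cd59b, which blocks the terminal complex, 15.5 and 4.59 CPM (-1.75).

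Of 9 receptors 6 were at least 2-fold higher and 1 lower over all kept cells. This count does not set the mix of classes apart from levels. B-like cells were 0.58% and 2.54% of kept cells, macrophage-like cells 5.85% and 7.90%, and neutrophil-like cells numbered 0 and 59. Itgam and Itgb2, the subunits of complement receptor 3, had 10.1 and 38.8 CPM (1.95) and 9.08 and 28.4 CPM (1.64), and Itgax, the alpha subunit of complement receptor 4, 1.22 and 18.3 CPM (3.88). Within macrophage-like cells Itgax had 2.22 and 68.9 CPM from 2 and 76 UMIs (4.64; 3.05 to 8.03), and Itgam 108 and 218 CPM (1.01; 0.67 to 1.37). Vsig4, the receptor for C3b on resident macrophages, was lower there, at 94.5 and 36.3 CPM (-1.37; -1.96 to -0.82). C3ar1, the receptor for C3a, had 153 and 170 CPM in macrophage-like cells, with an interval from -0.17 to 0.48. The macrophage values of these receptors are by class only. Clusters 103, 104 and 107 came from 1 library nearly alone, so shifts between clusters and differences within them cannot be told apart. Cd93 had 217 and 227 CPM over all kept cells.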

How the data were processed

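The deposited values are whole-number UMI counts per gene and barcode, made by the authors, who used Cell Ranger, Seurat and mm10 per the submitters' processing notes; versions, and whether introns were counted, are not given in the sources used here. A 10x Chromium 3' kit was used per the labels' protocols, but each barcode is 3 blocks of bases, and loading of cells or of nuclei is stated nowhere in them. The members and all gene lists were chosen with earlier results of these data known.

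Cells were kept with at least 200 genes and at most 50% mitochondrial UMIs. The Scrublet threshold marked 0 and 3 cells, too few to be of use, so the 8% of cells with the highest scores were removed (1284 and 808), which does not show that they were doublets. Cells of both libraries were clustered together with scanpy 1.11.5 on 2000 variable genes, without complement genes and without integration (30 components, 15 neighbours, leidenalg 0.10.2 at resolution 1). Myeloid clusters 5 and 13, at first macrophage-like and neutrophil-like, were pooled and clustered again. Clusters were given a class name where 3 or more markers of a preset list were at least 2-fold higher than in the other cells. A cluster led by markers of another class stayed unnamed. Thresholds of naming, and leaving Cdh19 and haemoglobin genes out, were chosen after the data were seen. With all markers kept, cluster 15 was erythroid-like in place of unnamed. Differences from the study may come from these rebuilt names.

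UMIs were summed per class and library and divided by nuclear-encoded UMIs (CPM). Ratios add 0.5 UMI to each sum. Intervals are exact Poisson for levels, Clopper-Pearson for shares and conditional binomial for ratios; UMIs limit but do not remove copies from amplification. A level of 0 was compared with a floor of 3 UMIs per library and class. All members were named. Of the other complement genes with at least 100 UMIs, up to 4 per role with the most UMIs and the extremes of the ratio were named, plus genes added to complete a receptor or role after values were seen. A gene that this rule names is not reported here. Positions are from GENCODE vM21, which matched 32445 of 32589 identifiers. Calculations were tested on simulated data. Alternatives covered clustering genes and resolution, doublet removal, cell filters, scaling, thinning, weighting of cells and the minimum of UMIs; 4 more were added after the data were seen.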

Additional observations from a re-analysis of the deposited data

How the results depend on the processing

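These log2 ratios kept their sign under every alternative run: in fibroblast-like cells C4b ranged from 2.43 to 2.59, C3 from 0.22 to 0.31, C1s1 from 0.19 to 0.34 and C7 from 1.15 to 1.33 (the last at Leiden resolution 2), and in mesothelial-like cells C3 ranged from 1.46 to 2.13, C1s1 from 2.13 to 2.64, C4b from 2.41 to 3.01 and Cfb from 2.93 to 4.38. Of values at least 2-fold higher, these fell short of 2-fold in some alternatives: mesothelial C2 (0.76 to 1.29), macrophage C4b (0.91 to 1.38), cardiomyocyte C3 (0.92 to 1.57) and C7 over all kept cells (lowest 0.96). C3 over all kept cells did so too, at 0.55 without mesothelial-like cells. The summed C1q ratio in macrophage-like cells did not keep its sign. It was -0.14 at resolution 0.5 and -0.056 with at least 500 genes per cell. Further values come from alternatives chosen after the data were seen. They were -0.15 with the unnamed myeloid clusters, 0.34 without the Gpnmb and Mmp12 cluster and 0.71 in clusters with at least 30 cells in each library. The last value includes a shift between those clusters. Of pairs of member and class, 29 were at least 2-fold higher and 10 lower of 90 with no minimum of UMIs (1 of the 10, Cfb in smooth muscle-like cells, had no UMI in either library and is no difference; over all pairs of gene and class with at least 1 UMI 13.7% were higher and 23.3% lower), and 9 were higher and 1 lower of 31 after thinning to 500 UMIs, where fewer pairs had enough UMIs. At most 20% mitochondrial UMIs made 1 pair lower, C7 in endocardial-like cells at -1.16, from 30 and 30 UMIs; the cause was not tested. The top class changed for C1s1, C4b and Cfb, in the library labelled wild-type only. Some alternatives left smooth muscle-like or B-like cells under 50 cells in a library, and gave no value there. With at least 500 genes per cell the Scrublet threshold marked 2664 cells of the library labelled wild-type, which were removed. Median-of-ratios scaling subtracts a factor per class from each log2 ratio. This factor was beyond 0.1 either way in cardiomyocyte-like (-0.22), B-like (0.31), smooth muscle-like (0.30) and lymphatic endothelial-like cells (0.10). Ratios therefore rose in cardiomyocyte-like cells and fell in the other classes named here. Depth limits C2 and Cfb in the library labelled wild-type, with 88 and 40 UMIs in all. No paired analysis was possible because each group has 1 library and no test was made.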
